A study of Homo sapiens with 4 samples.

Results

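Cancer-testis antigens were followed by gene symbol in RNA-seq data labelled NB4. Every entry of the deposited table whose symbol began with MAGE, GAGE, PAGE, XAGE, SSX, CT45, CT47 or CTAG was taken, together with PRAME. This gave 54 of 16562 gene symbols, carried by 81 of 29265 RefSeq transcript entries. CTAGE4 held no value, which left 53 symbols with FPKM values (fragments counted on a transcript, divided by its length and by the number of fragments mapped in the library). The study set 2 control libraries, labelled NC and described as having CEBPG present, against 2 CEBPG knockdown libraries labelled CEBPG3. All 4 libraries are labelled NB4, which is a human line of acute promyelocytic leukemia cells. In the study methods, short hairpin RNAs were delivered by lentivirus and stable lines were selected with puromycin, and the labels do not say that libraries of a group came from separate cultures. The p-values therefore measure the spread between these libraries, which may be technical.

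Cancer-testis antigens are proteins made in male germ cells or placenta and in many tumors, but in few other adult tissues. Most of their genes lie on the X chromosome in clusters of recent copies, and the promoters of many are silenced by DNA methylation in normal somatic cells. MAGE proteins share a MAGE homology domain and bind RING-type ubiquitin ligases, GAGE proteins are small and acidic, and PRAME is a leucine-rich repeat protein of a Cullin ubiquitin ligase. Peptides of MAGE, GAGE and PRAME proteins can be shown to T cells on MHC class I molecules, which is why these families were studied as tumor antigens.

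The rule caught unlike genes under some prefixes. MAGE held 22 symbols, of which 18 were type I genes (MAGEA, MAGEB and MAGEC), the germ-line restricted kind, and 4 were the widely expressed type II genes MAGED1, MAGED2, MAGEF1 and MAGEH1. GAGE held 20 symbols, CT45 held 4, and PRAME stood alone with 9 transcripts. The only PAGE entry was PAGE2B. SSX caught SSX2IP, which encodes a binding partner of an SSX protein at the centrosome and is no antigen, and CTAG caught 5 CTAGE genes, which form another family. No symbol began with XAGE or CT47 among the entries used here. RefSeq gave a position on GRCh38.p14 (hg38) for 45 of the 53 symbols, and 38 of these lay on the X chromosome.

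The sequences show how alike the copies are, which bears on how reads could be divided among them. In GAGE the stretch below covers coding bases 29 to 148, counted from the A of the start codon, and is shown because it holds 5 of the 9 coding positions at which the 9 aligned copies of 354 coding bases differ. The letters are from GENCODE release 44 on hg38, 5′ to 3′ on the plus strand, spliced across an intron, and capitals mark bases that differ from GAGE12D. GAGE12C and GAGE12E had the same coding sequence as GAGE12D over its whole length, and GAGE12G the same as GAGE12F.
GAGE12D, within chrX:49542916-49543500: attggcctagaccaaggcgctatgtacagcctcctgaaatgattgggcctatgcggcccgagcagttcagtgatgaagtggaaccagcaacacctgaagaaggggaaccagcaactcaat
GAGE12F, within chrX:49562025-49562609: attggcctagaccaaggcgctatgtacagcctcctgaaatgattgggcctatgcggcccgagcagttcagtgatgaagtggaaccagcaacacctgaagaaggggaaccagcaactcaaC
GAGE12J, within chrX:49323222-49323806: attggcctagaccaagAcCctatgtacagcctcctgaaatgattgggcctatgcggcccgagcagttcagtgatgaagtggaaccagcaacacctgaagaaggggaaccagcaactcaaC
GAGE13, within chrX:49332766-49333350: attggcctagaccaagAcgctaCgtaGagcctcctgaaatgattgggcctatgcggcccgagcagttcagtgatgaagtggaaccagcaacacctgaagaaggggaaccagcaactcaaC

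MAGEA genes differ more. The stretch shown for them covers coding bases 206 to 325 of the 945 in each gene and lies in a single exon, with capitals at bases that differ from MAGEA3. MAGEA3 and MAGEA6 differed at 18 coding bases in all, MAGEA12 and MAGEA3 at 74, and MAGEA2 and MAGEA3 at 80. MAGEA2 and MAGEA2B had identical coding sequences. MAGEA3 and MAGEA12 are read on the plus strand, MAGEA6 and MAGEA2 on the minus strand.
MAGEA3, chrX:152701038-152701157: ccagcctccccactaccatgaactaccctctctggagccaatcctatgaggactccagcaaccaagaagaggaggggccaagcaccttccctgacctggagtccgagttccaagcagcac
MAGEA6, chrX:152767326-152767445: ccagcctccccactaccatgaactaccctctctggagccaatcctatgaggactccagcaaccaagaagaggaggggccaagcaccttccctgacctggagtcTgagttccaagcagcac
MAGEA12, chrX:152736367-152736486: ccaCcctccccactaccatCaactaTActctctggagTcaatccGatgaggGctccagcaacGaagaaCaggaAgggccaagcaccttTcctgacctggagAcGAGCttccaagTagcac
MAGEA2, chrX:152751039-152751158: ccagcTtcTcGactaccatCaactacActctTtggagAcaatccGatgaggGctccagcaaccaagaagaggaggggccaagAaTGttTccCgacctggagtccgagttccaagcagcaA

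CEBPG itself, the gene the hairpin targets, stood at 17.1 and 18.1 FPKM in the controls and at 6.91 and 7.96 after knockdown (log2 fold change -1.14, SE 0.08, adjusted p = 0.000836). Library sums ranged from 346170 to 367105 FPKM, and the depth in reads is unknown because the table holds no counts. Of 17 erythroid marker genes, 15 were over 10 FPKM in every library, among them GATA1, KLF1 and the globins. The 17 together held 8631 and 8154 FPKM in the controls and 9632 and 9070 FPKM after knockdown. Of the 16 tested in limma, 3 were higher and 3 lower at an adjusted p under 0.05 (37.5%, beside 20.9% of all genes). Of 11 promyelocytic and myeloid markers, 5 stayed under 1 FPKM in every library, including AZU1 (0.37 to 0.57 FPKM) and PRTN3 (0.09 to 0.19 FPKM), granule genes that define promyelocytes. Their summed level was 70.7 and 68.6 FPKM in the controls and 99.4 and 96.7 FPKM after knockdown. Over 10 FPKM in every library were SPI1, LYZ, which was lower after knockdown (20.1 and 18.1 against 15.0 and 15.5 FPKM), and CD68, which was higher (20.6 and 18.5 against 47.3 and 43.9 FPKM). The levels of the erythroid and granule genes go against the labelled cell type, and the libraries are called here by their labels. SYCP3, the only one of 9 male germ cell markers with an entry used here, lay between 0.0859 and 0.178 FPKM, and both placenta markers with an entry (CSH1 and ERVW-1) were under 0.1 FPKM. The part that these markers play in the results was not tested.

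RNA of the PRAME, GAGE, MAGE and CT45 families was found in all 4 libraries. The 53 symbols summed to 1039 and 935.3 FPKM in the controls and to 947.6 and 911.8 FPKM after knockdown, or 0.284%, 0.271%, 0.259% and 0.256% of the FPKM of all symbols. GAGE held the most, the MAGEA genes and PRAME came next, and CT45, MAGEB, MAGEC and MAGED each stayed under 50 FPKM. Of the 53 symbols, 38 averaged 1 FPKM or more across the libraries and were tested, and 15 did not. Of the 38, 19 averaged 10 FPKM or more, beside 5440 of all 10968 genes tested. Among the tested, PRAME had the highest mean level in FPKM, a scale per length, followed by MAGEA3, GAGE1, MAGEA6, GAGE2A and GAGE12D. Those neighbours mostly overlapped: GAGE1 spanned 78.3 to 93.5 FPKM, MAGEA6 73.5 to 85.5 and GAGE2A 61.0 to 95.9.

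**Figure D1:**
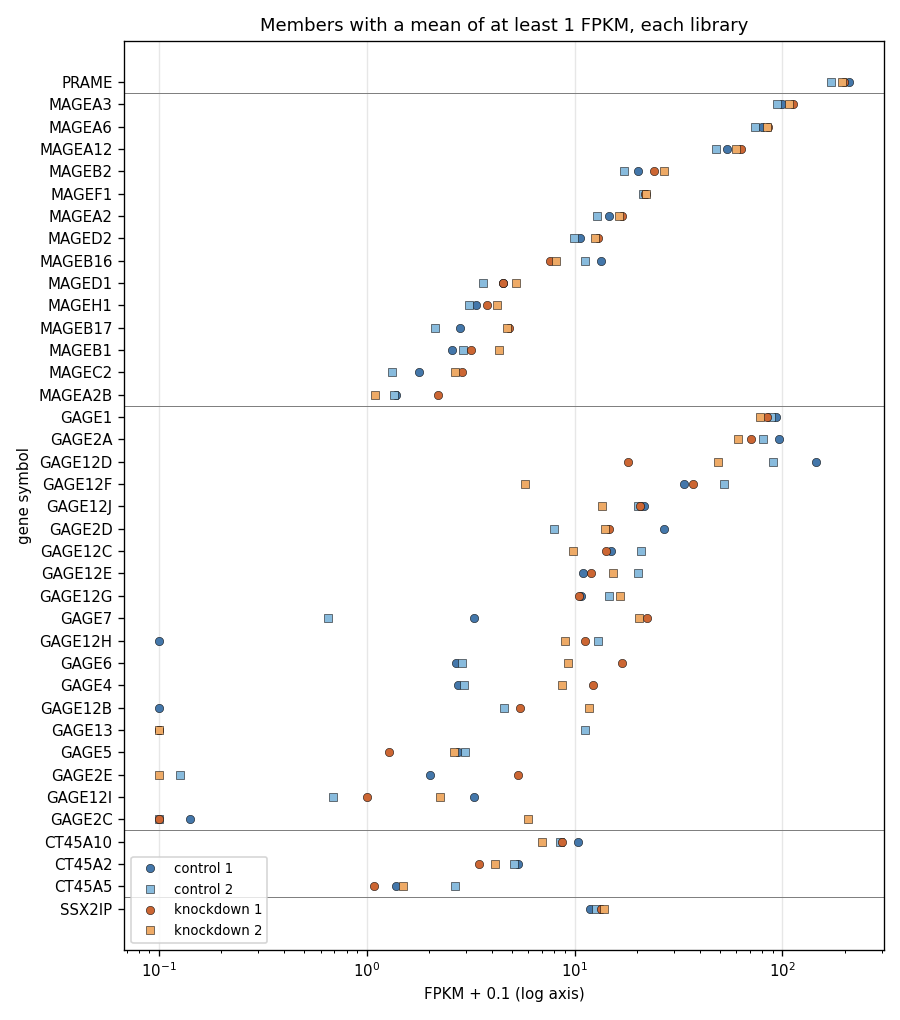
FPKM (plus 0.1, log axis) of the 38 members that averaged 1 FPKM or more, with 1 point for each library and lines between families. PRAME lies between 171.8 and 209.5 FPKM, while GAGE12H and GAGE13 ranged from 0 to over 10 FPKM between the control libraries.

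Knockdown was set against control on log2(FPKM + 1) with limma, with Benjamini-Hochberg adjustment over all 10968 genes tested. A fold change on this scale understates the change of low genes. At an adjusted p under 0.05, 8 of the 38 members were higher and 4 were lower after knockdown. Over all genes tested, 20.9% were called, 10.9% higher and 9.99% lower. The members' share was 31.6% (12 of 38), and their median log2 fold change was 0.14 against 0.015 for all genes. In 22 of the 38 members (57.9%) the groups did not overlap, against 64.8% of all genes, and 19 of the 38 had an unadjusted p under 0.05, against 37%. Leaving out libraries in turn gave 8 to 15 called members, while the share of all genes called was 17.6% without control replicate 1, 15.2% without control replicate 2, 7.39% without knockdown replicate 1 and 7.90% without knockdown replicate 2. GAGE4 and GAGE6 passed in every alternative run on genes. In bulk RNA, fewer cells that express a gene and less of its RNA per cell cannot be told apart.

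**Figure D2:**
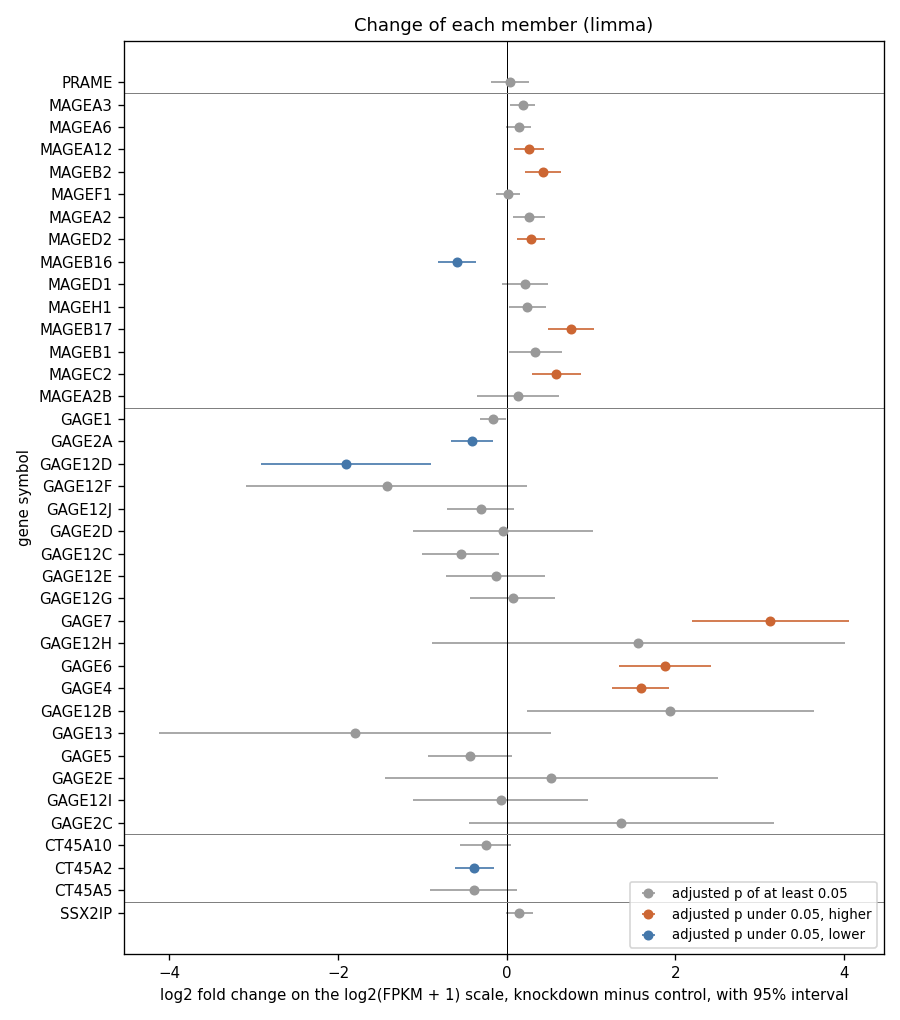
Log2 fold change of each tested member on the log2(FPKM + 1) scale, knockdown minus control, with the 95% interval from limma (2 libraries a group) and colors for the call. GAGE7, GAGE6 and GAGE4 lie farthest to the right among the called members and GAGE12D farthest to the left, and the widest intervals belong to uncalled GAGE symbols.

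Near-identical copies were also summed by family. For GAGE and CT45 the sums differed less between replicates than the median of their symbols did. The GAGE sum was 469.1 and 432.2 FPKM in the controls and 357.3 and 332.4 FPKM after knockdown. Both knockdown libraries were lower than both controls, at 76.5% of the control mean (log2 fold change -0.38, SE 0.07, adjusted p = 0.0116). The CT45 sum moved alike, from 17.1 and 16.2 FPKM to 13.2 and 12.4 FPKM (76.8% of control, log2 fold change -0.36, SE 0.07, adjusted p = 0.0130). In the table with family sums in place of the members, 21.3% of 10935 rows were called and 10.2% were called lower. Both calls fell away when genes of low level were kept in the test, with adjusted p = 0.0669 for GAGE and 0.0520 for CT45. The GAGE call was also lost when GAGE7, which rose, and GAGE12D, which fell, were left out together, a choice made after seeing the data (log2 fold change -0.20, adjusted p = 0.177). The GAGE call was lost without knockdown replicate 1 (log2 fold change -0.44, adjusted p = 0.0669) and without knockdown replicate 2 (-0.33, adjusted p = 0.118), and the CT45 call without knockdown replicate 2 (-0.32, adjusted p = 0.0772). Over all alternatives the adjusted p ran from 1.9e-05 to 0.177 for GAGE and from 0.00216 to 0.0772 for CT45.

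The MAGE sum went the other way and did not pass the test. It was 330.3 and 301.5 FPKM in the controls and 365.7 and 359.3 FPKM after knockdown, without overlap (114.7% of control, log2 fold change 0.20, SE 0.07, adjusted p = 0.0723). Without control replicate 1 it passed (log2 fold change 0.26, adjusted p = 0.0310), as it did when the columns were scaled to the same sum or by median ratios. The PRAME sum, 209.5 and 171.8 FPKM against 197.7 and 193.4 FPKM, overlapped between groups (log2 fold change 0.04, SE 0.09, adjusted p = 0.772), and its direction turned without control replicate 2 (-0.10). SSX2IP stood at 11.7 and 12.5 FPKM in the controls and at 13.3 and 13.8 FPKM after knockdown (log2 fold change 0.15, adjusted p = 0.158). The PAGE and CTAG prefixes were too low to test.

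**Figure D3:**
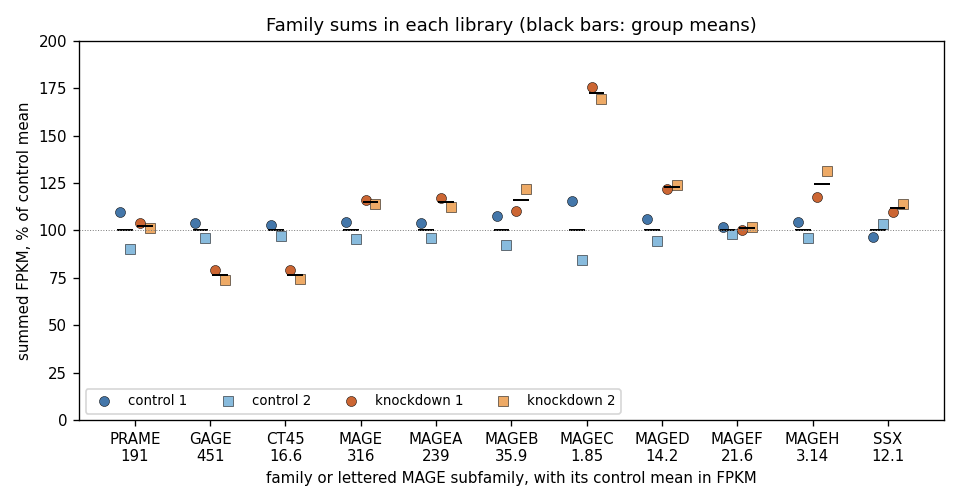
Summed FPKM of each family, and of the lettered MAGE subfamilies, in each library as a percent of the control mean (given in FPKM under the name), with black bars for group means of 2 libraries. GAGE and CT45 average 76.5% and 76.8% after knockdown, MAGEC lies highest at 172% of a control mean of 1.85 FPKM, and PRAME overlaps.

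The GAGE sum was divided by numbered copy. The 9 GAGE12 symbols together held 239.9 and 235.6 FPKM in the controls and 129.5 and 132.5 FPKM after knockdown, 55.1% of the control mean. The other 11 symbols together held 229.2 and 196.5 FPKM against 227.9 and 199.9 FPKM, 100.5% of control. This division was made after the values were seen and carries no test, and it does not hold copy by copy. Among the GAGE12 symbols GAGE12D alone was called, and the means of GAGE12B, GAGE12G and GAGE12H were higher after knockdown, while GAGE2A, among the other 11, was called lower.

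**Figure D4:**
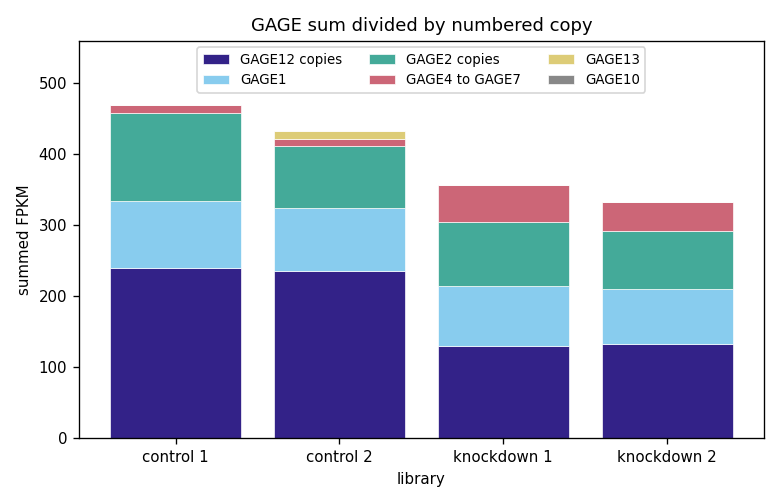
Stacked bars of the GAGE sum in FPKM in each library, divided by numbered copy. The GAGE12 block shrinks from about 240 to about 130 FPKM, the GAGE4 to GAGE7 block grows from 11.0 and 9.02 FPKM to 52.4 and 40.7 FPKM, and the GAGE1 and GAGE2 blocks change less.

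GAGE12D carried most of the GAGE12 fall. It stood at 145.4 and 90.0 FPKM in the controls and at 18.0 and 49.1 FPKM after knockdown, so both groups were spread widely but did not overlap (log2 fold change -1.90, SE 0.42, adjusted p = 0.0236). Without control replicate 1 its call was lost (adjusted p = 0.0646, within a range of 0.00172 to 0.121 over all alternatives), and leaving out libraries in turn gave log2 fold changes from -2.60 to -1.20. Its coding sequence is that of GAGE12C and GAGE12E, and these 3 summed to 171.2 and 130.9 FPKM in the controls and to 44.1 and 74.1 FPKM after knockdown. GAGE12C alone was 14.9 and 20.7 FPKM against 14.1 and 9.72 FPKM, and GAGE12E overlapped, at 10.9 and 20.1 against 11.9 and 15.3 FPKM. GAGE12F and GAGE12G, the other identical pair, summed to 44.1 and 66.7 FPKM in the controls and to 47.5 and 22.2 FPKM after knockdown. In GAGE12F a single knockdown library was low, at 5.70 FPKM beside 37.1 FPKM in the other.

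GAGE2A, the neighbour of GAGE1 by position, was lower with a narrower spread. Its levels were 95.9 and 80.1 FPKM in the controls and 70.6 and 61.0 FPKM after knockdown (log2 fold change -0.41, SE 0.10, adjusted p = 0.0348). The call was lost without knockdown replicate 1, knockdown replicate 2 or control replicate 1 (adjusted p = 0.0570, 0.167 and 0.0789). GAGE1, which has a transcript of 2993 bases in GENCODE against 558 to 561 for most full-length copies, was 93.5 and 88.3 FPKM against 84.4 and 78.3 FPKM. Its groups did not overlap, but the difference did not pass the test (log2 fold change -0.16, SE 0.06, adjusted p = 0.124). In at least 1 alternative fit it did pass, also lower.

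GAGE7, GAGE6 and GAGE4 rose from low levels. GAGE7 was 3.18 and 0.554 FPKM in the controls and 22.2 and 20.3 FPKM after knockdown (log2 fold change 3.13, SE 0.39, adjusted p = 0.00397). Leaving out libraries in turn gave log2 fold changes of 2.41 to 3.84 for GAGE7. Its call was lost when genes of low level were kept in the test. GAGE6 went from 2.58 and 2.77 FPKM to 16.8 and 9.20 FPKM (log2 fold change 1.88, SE 0.23, adjusted p = 0.00370). GAGE4 went from 2.64 and 2.83 FPKM to 12.1 and 8.59 FPKM (log2 fold change 1.59, SE 0.14, adjusted p = 0.00151). In all 3 the knockdown libraries were well above the controls. GAGE5, with a number in the same range, was 2.64 and 2.86 FPKM in the controls and 1.18 and 2.53 FPKM after knockdown, below the controls in both and not called (adjusted p = 0.186). The rise of GAGE4, GAGE6 and GAGE7 together, from 8.40 and 6.15 FPKM to 51.2 and 38.1 FPKM, was smaller in FPKM than the fall of GAGE12D. GAGE2C, GAGE2D, GAGE2E, GAGE4, GAGE5, GAGE6, GAGE7 and GAGE12I were matched to no position in the RefSeq table.

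Other GAGE symbols switched between libraries of the same group. GAGE12H was listed at 0 in control 1 but at 12.8 FPKM in control 2, and at 11.1 and 8.92 FPKM after knockdown. GAGE13 held 11.1 FPKM in control 2 and almost nothing in the other 3 libraries. GAGE2C held 5.85 FPKM in knockdown 2 and at most 0.0415 FPKM elsewhere. In all, 5 of the 19 tested GAGE symbols were listed at 0 in at least 1 library. GAGE12B was 0 and 4.46 FPKM in the controls against 5.38 and 11.6 FPKM, and was not called. GAGE2D was 26.8 and 7.88 FPKM against 14.5 and 13.96 FPKM, GAGE2E 1.92 and 0.027 FPKM against 5.25 and 0 FPKM, and GAGE12I 3.18 and 0.59 FPKM against 0.903 and 2.16 FPKM. The groups of these 3 overlapped, as did those of GAGE12J and GAGE12G.

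The share of each gene's sequence found in no other gene of GENCODE 44 was set beside this spread. All 100-base windows of the GENCODE 44 transcripts of 31 tested members were compared with those of every other gene. GAGE12B, GAGE12C, GAGE12D, GAGE12E, GAGE12G and GAGE2E had no window of their own, GAGE12F had 4.32%, GAGE2A 43.6% and GAGE1 87.8%. PRAME, SSX2IP and all tested MAGEB, MAGEC, MAGED, MAGEF and MAGEH genes had 100%, MAGEA12 had 96.5%, MAGEA3 64.2%, MAGEA6 65.9% and MAGEA2 10.6%. In the 9 members with under 10% unique windows, the replicates differed by a median of 0.62 (control) and 0.64 (knockdown) on the log2 scale. In the 16 members with at least 50% unique windows the medians were 0.15 and 0.08, against 0.09 and 0.08 over all tested genes. The 6 members in between had medians of 0.26 and 0.25 and held the widest control difference, 3.79 for GAGE12H. The groups did not overlap in 12 of the 16, 2 of the 6 and 4 of the 9, beside 64.8% of all genes, and 6, 1 and 2 were called, beside 20.9%. GAGE symbols as single entries differed between replicates by a median of 0.62 and 0.58, and the GAGE sum by 0.12 and 0.10. How the counting treated reads that match several copies was not given in the sources used here, so the FPKM of any single GAGE copy is uncertain. That includes GAGE4, GAGE6 and GAGE7, which were not among the 31 members compared. GAGE2C, GAGE2D, GAGE5 and GAGE12I were not compared either. The unique shares of the other GAGE symbols may therefore be too high.

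Among 10 tested type I MAGE genes, 4 were called higher and 1 lower, beside 10.9% and 9.99% of all genes. In 9 of the 10 the groups did not overlap (8 higher, 1 lower), beside 64.8% of all genes. MAGEA3, whose protein is a long-studied vaccine antigen, was 99.6 and 93.8 FPKM in the controls and 112.7 and 107.8 FPKM after knockdown (log2 fold change 0.19, SE 0.06, adjusted p = 0.0701). MAGEA6, its near copy, was 79.7 and 73.5 FPKM against 85.5 and 84.0 FPKM (log2 fold change 0.14, SE 0.06, adjusted p = 0.143). Both were separated between groups without passing the test. MAGEA12 did pass, at 53.9 and 47.9 FPKM in the controls and 63.1 and 59.5 FPKM after knockdown (log2 fold change 0.26, SE 0.07, adjusted p = 0.0458). Its call was lost without knockdown replicate 1, knockdown replicate 2 or control replicate 2 (adjusted p = 0.234, 0.118 and 0.119). MAGEA2 was 14.6 and 12.7 FPKM against 16.9 and 16.3 FPKM (adjusted p = 0.0577), and its copy MAGEA2B, near 1 FPKM, overlapped. The MAGEA genes summed to 249.3 and 229.3 FPKM in the controls and to 280.4 and 268.7 FPKM after knockdown (log2 fold change 0.20, adjusted p = 0.0717).

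The MAGEB genes, which lie elsewhere on the X chromosome, split in direction. MAGEB2 was 20.1 and 17.2 FPKM in the controls and 24.1 and 26.8 FPKM after knockdown (log2 fold change 0.43, SE 0.09, adjusted p = 0.0197), and lost its call without knockdown replicate 2 (adjusted p = 0.0975). MAGEB17 was 2.70 and 2.02 FPKM against 4.74 and 4.62 FPKM, 198% of the control mean (log2 fold change 0.77, SE 0.12, adjusted p = 0.00661). MAGEB1 was 2.48 and 2.80 FPKM against 3.06 and 4.21 FPKM, separated but not called (adjusted p = 0.114). MAGEB16 was the only type I MAGE gene called lower, from 13.3 and 11.1 FPKM to 7.52 and 8.03 FPKM (log2 fold change -0.59, SE 0.09, adjusted p = 0.00832). The calls of MAGEB2, MAGEB17 and MAGEB16 were lost when genes of low level were kept in the test. The MAGEB sum, 38.6 and 33.1 FPKM against 39.5 and 43.7 FPKM, was not called (adjusted p = 0.128).

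MAGEC2 rose from a low level, 1.68 and 1.22 FPKM in the controls against 2.77 and 2.56 FPKM after knockdown (log2 fold change 0.59, SE 0.12, adjusted p = 0.0196). The call was lost without knockdown replicate 1, knockdown replicate 2 or control replicate 2 (adjusted p = 0.0976, 0.0620 and 0.0606). MAGEC1 was the highest member left out of the test, with a mean of 0.466 FPKM, followed by CTAGE7P and PAGE2B with 0.415 and 0.361 FPKM. The lowest members inside it were MAGEA2B, GAGE2C and CT45A5 with means of 1.41, 1.47 and 1.56 FPKM. None of the 15 members left out reached 1 FPKM in any library, and GAGE10 came nearest with 0.743 FPKM in knockdown 1. PAGE2B was 0.668 and 0.470 FPKM in the controls and 0.0833 and 0.224 FPKM after knockdown. The remaining 11 low members, among them MAGEA8, MAGEA10 and CT45A1, held at most 0.26 FPKM in any library.

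The type II genes, which are expressed in many tissues, varied among themselves. MAGED2, an adaptor of ubiquitin ligases, was 10.6 and 9.81 FPKM in the controls and 12.8 and 12.4 FPKM after knockdown (log2 fold change 0.29, SE 0.07, adjusted p = 0.0306). Its call was lost without knockdown replicate 1, knockdown replicate 2 or control replicate 2 (adjusted p = 0.149, 0.0938 and 0.0984). MAGEF1, which lies on chromosome 3, varied little, at 22.0 and 21.2 against 21.6 and 22.0 FPKM (log2 fold change 0.02, SE 0.06, adjusted p = 0.879). MAGED1 was 4.42 and 3.51 FPKM against 4.41 and 5.14 FPKM, overlapping, and MAGEH1 was 3.27 and 3.01 FPKM against 3.68 and 4.12 FPKM, not called (adjusted p = 0.106). Without these 4 genes the MAGE sum was 290.0 and 264.0 FPKM against 323.1 and 315.6 FPKM, or 115.3% of control.

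CT45A2, a CT45 copy on the long arm of the X chromosome, was 5.25 and 5.01 FPKM in the controls and 3.37 and 4.06 FPKM after knockdown (log2 fold change -0.38, SE 0.10, adjusted p = 0.0354). Its call was lost without control replicate 1, control replicate 2 or knockdown replicate 1 (adjusted p = 0.103, 0.0755 and 0.158). CT45A10 was higher in level, at 10.3 and 8.38 against 8.59 and 6.84 FPKM, and overlapped. CT45A5 overlapped as well, at 1.28 and 2.57 against 0.98 and 1.39 FPKM. The CT45 coding sequences were 98.1% to 99.1% identical in pairs, and CT45A2 had 5.56% unique windows.

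Single member transcripts differed between replicates by a median of 0.43 (control) and 0.33 (knockdown) on the log2 scale, and member symbols by 0.25 and 0.21. Of 60 member transcripts tested, none was called in limma at an adjusted p under 0.05, while 16 had an unadjusted p under 0.05. Over all 15795 transcripts tested, 0.158% were called (0.0696% higher and 0.0886% lower), 20.3% had an unadjusted p under 0.05, and 53.9% did not overlap between groups, against 26 of the 60 (43.3%). The lowest adjusted p among members was 0.0587, for MAGEA12 transcript NM_001166387. It stood at 10.1 and 7.03 FPKM in the controls and at 0.387 and 0.459 FPKM after knockdown, while the MAGEA12 total was higher after knockdown.

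MAGEA6 was listed under different transcripts in different libraries. Its transcript NM_005363 was 79.6 and 73.5 FPKM in the controls, 0 in knockdown 1 and 84.0 FPKM in knockdown 2. NM_175868 was 85.5 FPKM in knockdown 1 and under 0.1 FPKM in the other 3 libraries. The MAGEA6 value thus stood under another transcript in a single library while the gene total stayed between 73.5 and 85.5 FPKM. PRAME behaved alike in part. NM_206955, its most abundant transcript, was 89.5 and 69.9 FPKM against 80.3 and 66.3 FPKM. NM_206954 was 1.61 and 4.72 FPKM in the controls and 11.9 and 9.45 FPKM after knockdown, and NM_006115 was 2.78 and 10.05 FPKM against 16.6 and 20.3 FPKM. NM_206953 was 25.9 and 29.4 FPKM against 35.4 and 38.3 FPKM, and NM_206956 was 37.7 and 39.3 FPKM against 35.0 and 23.2 FPKM. The groups of NM_206954, NM_006115, NM_206953 and NM_206956 did not overlap, with NM_206956 lower and the others higher after knockdown, and none was called.

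**Figure D5:**
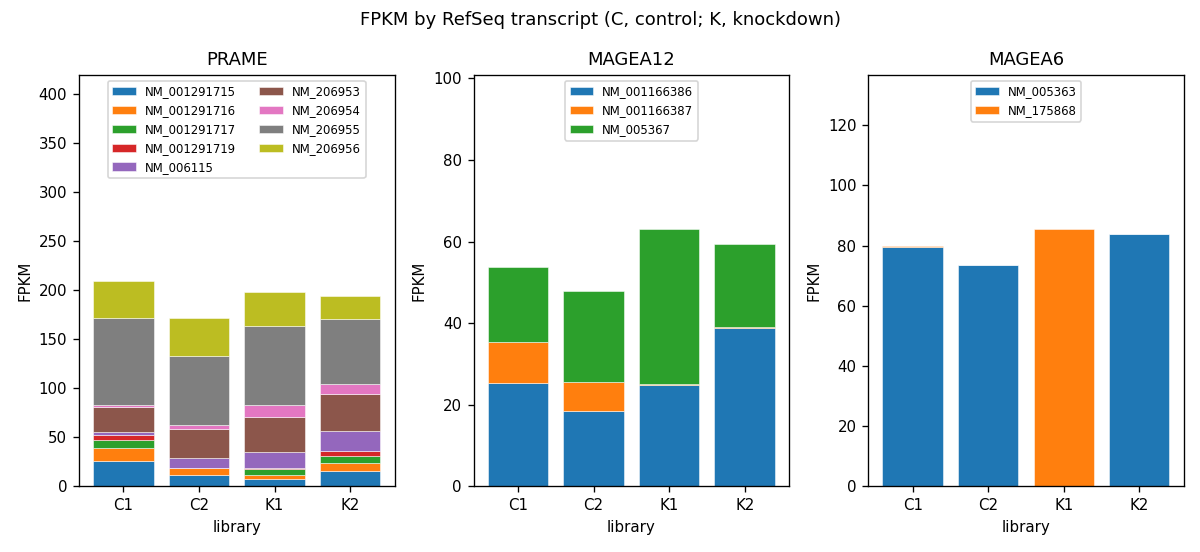
FPKM of each RefSeq transcript of PRAME, MAGEA12 and MAGEA6, stacked, in control (C1, C2) and knockdown (K1, K2) libraries. MAGEA6 is held by NM_005363 in 3 libraries and by NM_175868 in knockdown 1, MAGEA12 nearly lacks NM_001166387 after knockdown, and the PRAME bars are divided differently in each library.

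The 250 bases before the start of 36 member promoters (26 genes) were read from the RefSeq promoter table on GRCh38.p14, with every CG pair, the site of DNA methylation, in capitals. They are shown because these families are known for control by promoter methylation, which was not measured here. The GAGE12D promoter held 8 CG pairs and had the same letters as those of GAGE12C, GAGE12E, GAGE12F, GAGE12H, GAGE12J, GAGE13, GAGE2A and, at the later of its starts, GAGE1. The MAGEA3 promoter held 15 and was identical to that of MAGEA6. The median was 8 over member promoters and 11 over all 35116 promoters. GAGE copies gave 12 of the 36 member promoters, so these are not independent. The 26 genes are a part of the 38 tested. They leave out GAGE4, GAGE6, GAGE7, MAGEB17 and CT45A2, which were called.
GAGE12D, chrX:49541483-49541732, plus strand: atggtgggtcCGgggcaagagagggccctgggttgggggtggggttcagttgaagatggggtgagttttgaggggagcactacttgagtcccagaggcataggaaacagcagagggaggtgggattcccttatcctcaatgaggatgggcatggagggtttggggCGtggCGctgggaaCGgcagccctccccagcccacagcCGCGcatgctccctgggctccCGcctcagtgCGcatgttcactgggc
MAGEA3, chrX:152698544-152698793, plus strand: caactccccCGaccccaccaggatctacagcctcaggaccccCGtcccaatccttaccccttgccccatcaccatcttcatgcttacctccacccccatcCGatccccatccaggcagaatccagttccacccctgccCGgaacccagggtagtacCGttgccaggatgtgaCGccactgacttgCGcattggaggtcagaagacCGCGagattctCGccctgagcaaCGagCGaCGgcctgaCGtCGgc

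The levels of genes with these same letters are given side by side, with no test between them. GAGE12C, GAGE12D, GAGE12E, GAGE12F, GAGE12J, GAGE2A and GAGE1 were 67.0%, 28.5%, 87.5%, 49.99%, 81.5%, 74.8% and 89.4% of their control means, of which GAGE12D and GAGE2A passed the test. GAGE12H was 156% of its control mean with a control library at 0, and GAGE13 was near 0 in all but a control library. CEBPG encodes a leucine-zipper factor of the C/EBP family. On both strands, the palindrome TTGCGCAA of that family was in none of the 36 member promoters and in 0.131% of all promoters. The composite motif TGATGNAA was in 1 (of MAGED1) and in 3.14% of all. The shorter letters CCAAT, the CCAAT box, were counted apart from these and are not read here as a CEBPG site. They were in 9 of the 36 (25.0%) and in 32.0% of all, and these motifs do not contain each other. MAGEA3 and MAGEA6 were among the genes with CCAAT.

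Genes of related roles were read from lists. Of 56 other cancer-testis genes, 30 had an entry used here and 18 were tested: 2 were higher and 4 were lower (33.3% called, beside 20.9% of all genes), with a median log2 fold change of 0.01. Leaving out libraries in turn gave 2 or 3 calls, all lower, with 7.39% to 17.6% of all genes called. The higher were ATAD2 (42.0 and 42.7 against 47.9 and 50.1 FPKM, adjusted p = 0.0474), a bromodomain ATPase, and PBK, a mitotic kinase (27.3 and 27.5 against 31.3 and 33.9 FPKM, adjusted p = 0.0413). The lower were KIF2C, a mitotic kinesin (72.0 and 65.4 against 41.8 and 40.4 FPKM, adjusted p = 0.00158), the kinetochore gene NUF2 (log2 fold change -0.40), the sperm protein gene SPA17 (-0.36) and the scaffold gene SPAG9 (-0.25). PBK, KIF2C and NUF2 act in mitosis in somatic cells too. CTCFL, a germ-line paralog of CTCF, was 21.9, 23.8 and 26.7 FPKM in controls and knockdown 1 but 8.01 FPKM in knockdown 2 (adjusted p = 0.369).

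Of 33 tested genes for DNA methylation and chromatin repression, none was called higher and 2 were called lower, with a median log2 fold change of 0.02. DNMT3A, a de novo DNA methyltransferase, was 4.25 and 5.14 FPKM in the controls and 2.87 and 2.30 FPKM after knockdown (log2 fold change -0.67, adjusted p = 0.0122). TET1, which oxidizes methylated cytosine, was 3.01 and 2.96 against 2.00 and 2.06 FPKM (log2 fold change -0.39, adjusted p = 0.0268). DNMT3B, the related methyltransferase, stood higher, at 21.0 and 20.8 against 22.2 and 22.5 FPKM, and was not called (adjusted p = 0.289). The list's 6.06% called stands beside the 20.9% of all genes. The count was 6 with columns scaled to the same sum, 7 with median-ratio scaling or the replicate block, 1 without knockdown replicate 1 and 0 without knockdown replicate 2. Of all genes, 24.4%, 24.5%, 31.4%, 7.39% and 7.90% were called in these 5 fits, in the same order.

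Genes that present peptides on MHC class I were read next. Of 12 tested, 5 were higher and 1 was lower, beside 10.9% and 9.99% of all genes, and the median log2 fold change was 0.26. The count of 6 calls fell to 1 without either knockdown replicate and to 3 without control replicate 2, fits in which 7.39%, 7.90% and 15.2% of all genes were called. B2M, the light chain of MHC class I, was 104.8 and 100.1 FPKM in the controls and 125.4 and 123.2 FPKM after knockdown (log2 fold change 0.28, adjusted p = 0.0184). PSME1, a proteasome activator subunit, was 39.7 and 36.4 against 57.9 and 56.4 FPKM (log2 fold change 0.57, adjusted p = 0.00271). IRF1, a factor of interferon responses, was 2.19 and 1.69 against 3.25 and 3.25 FPKM (log2 fold change 0.54, adjusted p = 0.0196), and TAPBP (0.34) and the peptide-trimming ERAP1 (0.25) were called higher as well. The chaperone gene CALR was lower, 365.9 and 338.6 against 277.7 and 265.4 FPKM (log2 fold change -0.37, adjusted p = 0.0112). TAP1, a peptide transporter subunit, was too low to test, at 0.310 and 0.314 FPKM in the controls and 0.419 and 0.468 FPKM after knockdown.

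Of 19 tested partners of MAGE and PRAME proteins, none was higher and 5 were lower (26.3% called, beside 20.9% of all genes), with a median log2 fold change of -0.01. Leaving out libraries in turn gave 1 to 3 calls, with 7.39% to 17.6% of all genes called. RXRA, a partner of the retinoic acid receptors that PRAME binds, was 5.72 and 5.30 FPKM in the controls and 3.45 and 3.09 FPKM after knockdown (log2 fold change -0.61, adjusted p = 0.00596). RARA, the receptor itself, was 6.39 and 5.56 against 7.30 and 7.03 FPKM and was not called (adjusted p = 0.0994). The ubiquitin protease gene USP7 (log2 fold change -0.27), the ubiquitin ligase gene RNF8 (-0.41) and the SMC5/6 complex genes SMC6 (-0.27) and NSMCE4A (-0.24) were also lower.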

How the data were processed

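RNA-seq libraries labelled NB4 (2 control, 2 CEBPG knockdown) were read from 1 deposited table. The authors mapped reads with HISAT2 2.0.5 on hg38, per the submitters' processing notes, and deposited FPKM values per RefSeq transcript; the quantifier was not given in the sources used here. The table had no unused column of per-sample values (0), and 164 entries without a symbol (0.250% of FPKM) were left out. Transcripts were summed per symbol and per prefix. FPKM carries no depth, whole reads could not be recovered, and no counting interval was given. Genes that averaged 1 FPKM or more were compared on log2(FPKM + 1) in limma 3.58.1 (R 4.3.3; linear model, trended empirical Bayes, 2-sided, Benjamini-Hochberg adjustment, no replicate block). Tested on simulated data for this comparison (10799 genes, 200 of them changed), 94% of genes changed by a log2 of 0.5 were recovered, and 7.18% of calls were false. The changed genes were drawn from higher control levels than those of GAGE4, GAGE6, GAGE7, MAGEB17 and MAGEC2. The noise followed the fitted spread, and reads shared between copies were not simulated. The rates therefore do not carry over to these members or to GAGE copies. Members and lists were chosen with earlier results of these data known. Named were CEBPG, members of at least 1 FPKM and their families, the members nearest the filter, and called list genes (at most 4 highest and 4 lowest); other list and marker genes were named after their values were seen.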

Additional observations from a re-analysis of the deposited data

How the results depend on the processing

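FPKM carries no read depth, so the precision of low values is unknown, and with 2 libraries a group each fit without a library rests on a lone sample assumed to vary like the other group. Keeping low genes in the test (16504 genes) cut the calls from 2288 (20.9%) to 882 (5.34%) of all genes. It called 2 members (against 12), 0 families (2), 0 DNA methylation genes (2), 1 MHC class I gene (6), 2 other cancer-testis genes (6) and 2 partners (5). The GAGE sum (-0.38) and the CT45 sum (-0.36) then missed the threshold, as the GAGE sum did without GAGE7 and GAGE12D (-0.20). The MAGE sum passed with columns scaled to 1 sum (0.18), with median-ratio scaling (0.18) and with the replicate block (0.20). The DNA methylation list had 6, 7 and 7 calls in these fits. With MAGE as lettered subfamilies 4 sums were called: MAGEC (0.56, adjusted p = 0.0192) and MAGED (0.28, adjusted p = 0.0360) were higher. Testing transcripts gave 0 called members, and moderation without a trend gave 3 partners. The subfamilies and the GAGE sum without 2 symbols were chosen after seeing the data. The direction turned for GAGE12I with a pseudocount of 0.1 (0.0016) and for MAGEF1 with columns scaled to 1 sum (-0.0059). Apart from the construction of each alternative, the causes were not tested.

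Leaving out libraries in turn gave log2 fold changes of -0.40 to -0.32 for the CT45 sum, -0.44 to -0.33 for GAGE, 0.13 to 0.26 for MAGE and -0.10 to 0.19 for PRAME. Calls ranged from 8 to 15 for members, 0 to 3 for families, 0 to 2 for DNA methylation genes, 1 to 4 for MHC class I genes, 2 to 3 for other cancer-testis genes and 1 to 3 for partners, while 809 to 1931 of all genes (7.39% to 17.6%) were called. The direction turned for GAGE12E (-0.54 to 0.28), GAGE12G (-0.24 to 0.38), GAGE12H (-0.34 to 3.45), GAGE12I (-0.77 to 0.63), GAGE2D (-0.87 to 0.78), GAGE2E (-0.22 to 1.85), MAGEA2B (-0.18 to 0.45) and MAGEF1 (-0.013 to 0.044), none of them called. In total 326 of 402 alternative values of single members kept direction and side of the threshold.

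The libraries share only a replicate number: the deviations of same-numbered libraries correlated at 0.101, over 2 pairs. The replicate block called 3440 genes (31.4%) and 25 members, 14 higher and 11 lower.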
